A study of Mus musculus with 9 samples.

Results

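A set of 7 genes with little known role in the retina stood near the top of the genes raised by retinal vein occlusion (RVO) in mice, and they are described here. They were Csn3, Hsd17b2, Fam179a, Fam83g, Krt24, Cyb5r2 and Krtap4-16, 7 of the 48587 gene names in the count table. They were picked by hand from the genes with the largest ratio of RVO to control counts, so their rise in RVO over control eyes is what chose them and is given as a description, without a test. All mice were C57BL/6J and 12 weeks old. In RVO eyes all veins were closed with a laser after injection of the photosensitizer eosin Y, and retinas were taken at d2. Control eyes, the other eyes of those mice, received the same laser scheme between the large vessels. Untreated eyes came from other mice without laser treatment. Each of the 3 samples per group was a pool of 6 retinas, so n counts pools and not mice, and RVO and control pools shared their animals. Since both laser groups received laser burns, the untreated comparison cannot separate vein closure from laser treatment.

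The 7 genes belong to unrelated families that are better known outside the eye. Csn3 encodes kappa-casein, which keeps the casein micelles of milk in solution. Hsd17b2 encodes a 17-beta-hydroxysteroid dehydrogenase that oxidizes estradiol and testosterone to weaker steroids. Fam179a, now named Togaram2, encodes a protein with TOG domains, a fold that binds tubulin. Fam83g binds casein kinase 1 and SMAD1 and acts in BMP and Wnt signaling. Krt24 is a type I keratin, one of the paired proteins of epithelial intermediate filaments. Cyb5r2 is a reductase that passes electrons from NADH to cytochrome b5, and Krtap4-16 is one of the cysteine-rich proteins that embed keratin in hair.

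Total counts ranged from 21022997 to 28993921 per RVO sample, from 18897218 to 23419497 per control sample and from 12377572 to 15245869 per untreated sample, so low genes were measured least precisely in untreated eyes. Values below are CPM, counts per 1e6 of the sample's total after TMM scaling. RVO replicate 2 stood apart from the other RVO samples. The summed CPM of 6 lens markers was 535 in it, against 12.6 and 59.1 in the other RVO samples, and that of 6 ganglion cell markers was 459 against 200 and 257. The lens sum was 158, 45.5 and 13.3 CPM in control replicates 1, 2 and 3 and 0.771 to 2.83 CPM in untreated samples. High lens markers were thus not confined to RVO replicate 2. Rod markers, which define the tissue as retina, summed to between 41370 and 45516 CPM in RVO samples, between 51338 and 63217 CPM in control samples and between 77805 and 79925 CPM in untreated samples. In such bulk samples fewer cells of a type and less RNA per cell cannot be told apart.

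Hsd17b2 was by far the most abundant of the 7 genes. It lies on chromosome 8 (GRCm38, 117701904 to 117759027, plus strand). Its level was 55.1, 34.6 and 49.6 CPM in the RVO samples, 7.44, 9.34 and 9.08 CPM in control samples and 0.984, 0.841 and 0.982 CPM in untreated samples. The 3 groups did not overlap, and control samples were already well above untreated ones. The mean of RVO samples was 46.5 ± 10.6 CPM (SD, n = 3), a 5.39-fold difference from control (log2 fold change 2.43, SE 0.19) and a 49.1-fold difference from untreated (log2 fold change 5.62, SE 0.25).

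Fam179a, on chromosome 17 (71673261 to 71729669, plus strand), followed the same order at a lower level. The RVO samples held 18.1, 13.4 and 14.2 CPM, control samples 3.06, 3.40 and 2.37 CPM, and untreated samples 0.358, 1.07 and 0.280 CPM. Untreated replicate 2 was the highest untreated sample, with 14 counts against 4 in each of the other two. The difference was 5.20-fold between RVO and control (log2 fold change 2.38, SE 0.19) and 26.3-fold between RVO and untreated (log2 fold change 4.72, SE 0.36). Without Untreated replicate 2 the latter became 47.0-fold.

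Csn3 had the largest fold change among the members that passed the filter on low counts, and it was nearly absent from untreated eyes. The gene spans 87925579 to 87932665 on the plus strand of chromosome 5. Its level was 7.64, 3.99 and 5.23 CPM in RVO samples, 0.319, 0.762 and 0.338 CPM in control samples, and 0.0895, 0.0765 and 0 CPM in untreated samples. The untreated values were 1, 1 and 0 counts. RVO exceeded control 12.1-fold (log2 fold change 3.59, SE 0.40), the second largest ratio among 16874 genes. With 448 counts in RVO and 2 in untreated samples, the ratio of RVO to untreated was 112, with an exact 95% counting interval of 30.9 to 930 that covers counting error only. The fitted value was 96.1-fold, and 63.0-fold without Untreated replicate 3.

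Fam83g, on chromosome 11 (61684091 to 61709951, plus strand), varied more between RVO samples. It reached 6.19 and 4.88 CPM in RVO replicates 1 and 3 and 1.68 CPM in replicate 2. Control samples held 1.00, 0.508 and 0.296 CPM and untreated samples 0.268, 0.229 and 0 CPM. All RVO samples were above all control samples, but the RVO sample nearest to control was less than 1 CPM away. The fold change over control was 7.09 (log2 fold change 2.83, SE 0.59) with values of 9.10 without RVO replicate 2 and 10.7 without Control replicate 1. The ratio of counts to untreated samples was 28.5 (exact 95% counting interval 13.0 to 78.2), and the fitted fold change of 26.1 became 16.7 without Untreated replicate 3.

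Krt24 and Krtap4-16 both lie in the keratin region of chromosome 11, on the minus strand (99279959 to 99285262 and 99850655 to 99851608). Krt24 was at 5.64, 1.85 and 4.84 CPM in RVO, 0.867, 0.812 and 0.634 CPM in control and 0.447, 0.382 and 0.351 CPM in untreated samples. Its RVO to control ratio was 5.35 (log2 fold change 2.42, SE 0.44), or 6.72 without RVO replicate 2, and its RVO to untreated ratio 10.4. Krtap4-16 had 120, 9 and 44 counts in RVO, 4, 4 and 1 in control and 0 in each untreated sample, which gave 3.87, 0.387 and 1.95 CPM in RVO and 0.182, 0.203 and 0.0422 CPM in control samples. The RVO values thus spanned a 10.01-fold range, the widest of the 7 genes. Against a floor of 3 counts over the untreated group, Krtap4-16 summed over the RVO samples was at least 28.9-fold higher. This bound covers the untreated side only, and RVO replicate 1 gave 120 of the 173 RVO counts.

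Cyb5r2, on the minus strand of chromosome 7 (107748455 to 107758032), was the exception to the low value in RVO replicate 2. The RVO samples were at 6.29, 4.08 and 3.99 CPM, control samples at 1.46, 0.609 and 0.422 CPM and untreated samples at 0.447, 0.306 and 0.210 CPM. Control replicate 1 stood above the other control samples, and Control replicate 3 fell below Untreated replicate 1. RVO differed 5.77-fold from control (log2 fold change 2.53, SE 0.42), and 9.31-fold without Control replicate 1. From untreated eyes RVO differed 15.0-fold.

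**Figure D1:**
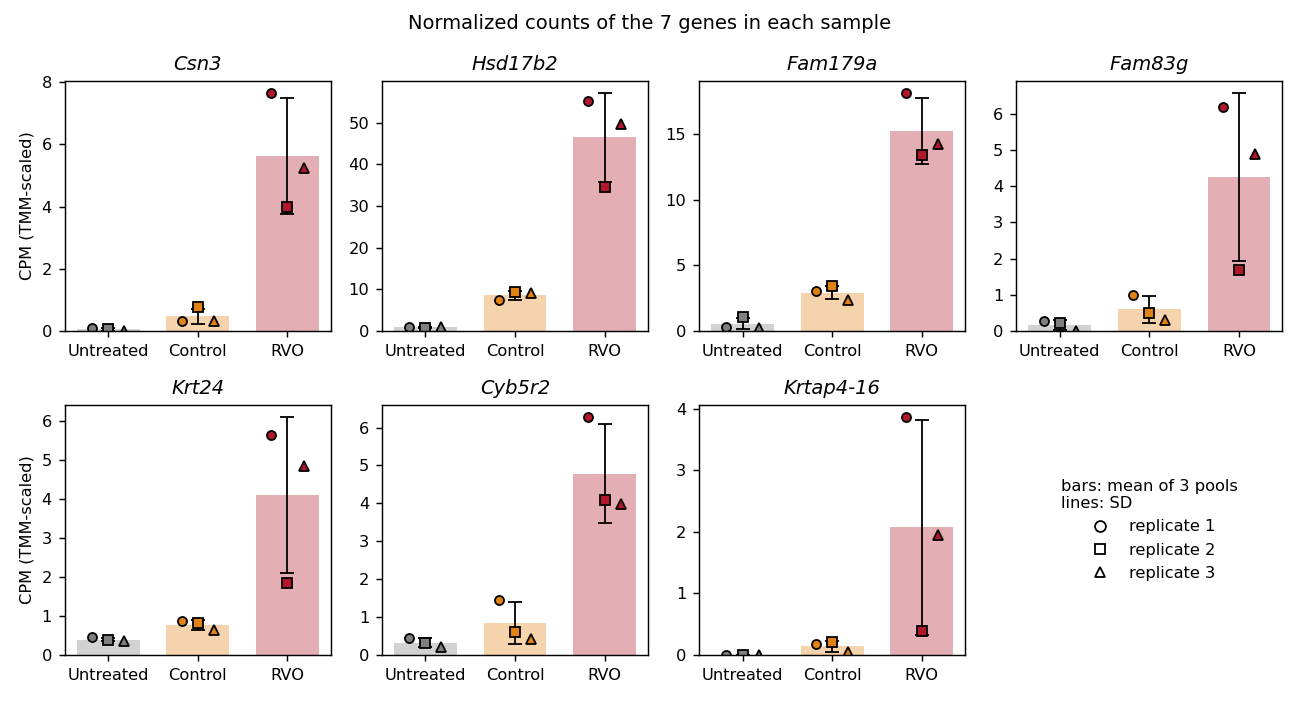
CPM (TMM-scaled, linear axis from 0, a separate scale per gene) of the 7 genes in untreated, control and RVO samples; bars are the mean of 3 pools, lines the SD and symbols the replicates. All 3 RVO points lie above all control points for each gene, and RVO replicate 2 (square) is the lowest RVO point for 6 of the 7 genes.

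RVO and control samples did not overlap for 7 of 7 genes, a pattern that 27.3% of all tested genes showed in this direction and that the choice of the genes favors. Krtap4-16 did not pass the filter on low counts and is not among those tested genes. RVO replicate 2 was the lowest RVO sample for 6 of 7 genes. The ratio of RVO replicate 1 to replicate 2 was 10.01 for Krtap4-16, 3.70 for Fam83g and 3.06 for Krt24, but 1.35 for Fam179a and 1.59 for Hsd17b2. The same sample had the lowest neutrophil marker sum among RVO samples (34.8 CPM against 81.0 and 86.7) and the lowest monocyte and macrophage marker sum (128 CPM against 149 and 165). Their part in the members' values was not tested. Across groups, the 9 neutrophil markers summed to 6.25 to 18.4 CPM in control and 0.0765 to 1.05 CPM in untreated samples, with Elane at 0 in all RVO samples and Cxcr2, Ly6g, Mpo, Elane and Retnlg at 0 in all untreated samples. The 8 monocyte and macrophage markers summed to 51.3 to 68.3 CPM in control and 9.41 to 12.8 CPM in untreated samples, with Ly6c2 at 0 in all untreated samples.

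**Figure D2:**
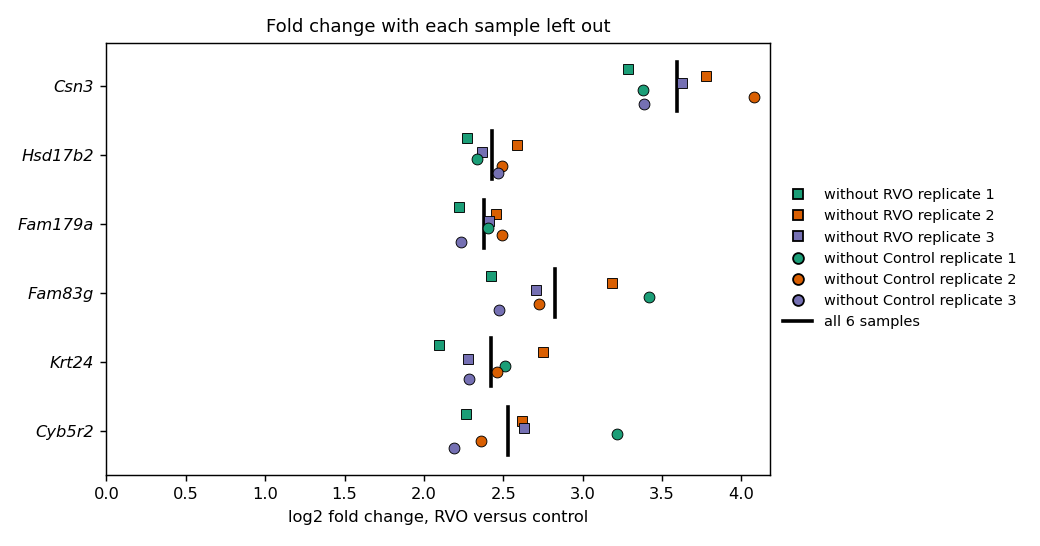
Log2 fold change between RVO and control for the 6 genes that passed the filter on low counts, with all 6 samples (black line) and with 1 sample left out (squares for RVO, circles for control samples). Values stay between 2.10 and 4.08, and the widest span is that of Cyb5r2, whose value is 3.22 without Control replicate 1.

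Levels per length set the genes in a different order from CPM. Per kb of annotated exon, the RVO level was 24.1 ± 5.53 CPM (SD, n = 3) for Hsd17b2, which stood apart from the rest. Fam179a followed at 2.71 ± 0.448, Krt24 at 2.22 ± 1.08, Krtap4-16 at 2.17 ± 1.83, Cyb5r2 at 1.73 ± 0.469, Csn3 at 1.35 ± 0.447 and Fam83g at 0.638 ± 0.349 CPM per kb. From Fam179a down to Fam83g, each gene differed from the next by less than the sum of their SDs.

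Whether these genes were also higher in eyes with laser treatment but without occlusion was asked by comparing control with untreated eyes. Control eyes came from mice under anesthesia with eosin Y and an occluded fellow eye, and untreated eyes from other mice. In this comparison the laser burns cannot be told apart from these differences. The untreated samples took no part in the choice of the genes, and the control samples entered it as the denominator. A high ratio favors low control values, so the choice worked against a rise from untreated to control eyes. The shares of all genes below carry no such choice. Of the 7 genes, 3 passed the filter on low counts in this comparison and 2 were higher in control eyes (edgeR, quasi-likelihood, adjusted p under 0.01 by Benjamini-Hochberg), while 27.2% of all 16066 tested genes were. Hsd17b2 rose 9.04-fold (log2 fold change 3.18, SE 0.20, edgeR adjusted p = 1.15e-07). Fam179a rose 5.01-fold (log2 fold change 2.32, SE 0.37, edgeR adjusted p = 0.000129), or 8.93-fold without Untreated replicate 2. Krt24 differed 1.92-fold and did not pass (log2 fold change 0.94, SE 0.36, edgeR adjusted p = 0.0355). It did so at a threshold of 0.05, as did 33.0% of all tested genes in that direction.

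The other 4 genes had too few counts in control and untreated samples for the filter. When every gene with a count was tested, 5 of the 7 were higher in control eyes, beside 17.8% of 28543 genes. Besides Hsd17b2 and Fam179a these were Csn3 (edgeR adjusted p = 0.00132), Fam83g (edgeR adjusted p = 0.00604) and Cyb5r2 (edgeR adjusted p = 0.00952). In counts, the ratio of control to untreated was 8.85 for Csn3 (30 against 2 counts, exact 95% counting interval 2.25 to 76.4) and 3.83 for Fam83g (39 against 6 counts, 1.61 to 11.1). Krtap4-16, at least 1.77-fold higher, did not pass (edgeR adjusted p = 0.04997), nor did Krt24 (edgeR adjusted p = 0.0802). These low-count calls were fragile: without Untreated replicate 3 only Hsd17b2 and Fam179a remained past the threshold, and without Control replicate 1 Fam83g and Cyb5r2 did not pass. Csn3 also fell outside without Control replicate 2, and Cyb5r2 without Untreated replicate 2. Control and untreated samples did not overlap for 6 of 7 genes, the exception being Cyb5r2, beside 36.8% of tested genes in this direction.

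Set side by side, the control to untreated and RVO to control ratios share the control samples and are therefore not independent. For Hsd17b2 they were 9.04 and 5.39, for Fam179a 5.01 and 5.20, and for Krt24 1.92 and 5.35.

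Sequence before a RefSeq transcription start was matched for 4 of the 7 genes in RefSeq (GRCm38.p6), namely Cyb5r2, Fam83g, Krt24 and Krtap4-16. The 250 bases before each start were searched on both strands for ACGTG and GCGTG (cores of the hypoxia response element), TGANTCA (AP-1) and TTCNNNGAA (STAT). The stretches around the STAT and AP-1 matches are shown because these are factors of inflammation and wounding, with the match in capitals. They cover chr11:61684226-61684334 on the plus strand for Fam83g, and chr11:99285325-99285433 and chr11:99851779-99851855 on the minus strand for Krt24 and Krtap4-16.
Fam83g: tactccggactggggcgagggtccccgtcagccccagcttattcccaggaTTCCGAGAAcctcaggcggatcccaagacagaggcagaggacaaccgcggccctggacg
Krt24: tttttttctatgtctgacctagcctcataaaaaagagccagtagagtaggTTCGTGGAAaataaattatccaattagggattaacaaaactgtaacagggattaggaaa
Krtap4-16: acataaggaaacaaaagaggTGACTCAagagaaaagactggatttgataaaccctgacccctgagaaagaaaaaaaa

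The STAT match began 134 bases before the RefSeq start of Fam83g and 121 bases before that of Krt24, and the AP-1 match 230 bases before that of Krtap4-16. None of the matches overlapped another motif. The RefSeq start of Fam83g lies downstream of the start of its GENCODE model given above, so the stretch shown is inside that model, and the 250 bases searched overlapped 1 of its exons whereas the stretch shown overlapped 0. For Krtap4-16 the end of the 250 bases also overlapped 1 exon, outside the stretch shown. Of 32851 promoters of the same length, 7.02% held TTCNNNGAA and 6.75% held TGANTCA. Fam83g also held 3 matches to GCGTG, at 58, 28 and 11 bases before its start, a motif present in 28.2% of promoters. ACGTG, present in 16.6% of promoters, was in none of the 4 stretches, and Cyb5r2 held none of the 4 motifs. Such matches describe letters only and are no evidence of binding.

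The families of the 7 genes were followed through 183 relatives and partners, of which 182 were in the table and 56 had no count in any sample. Between RVO and control eyes, 3 of 64 tested relatives were higher and 0 lower, beside 2.70% higher and 0.634% lower of all tested genes (edgeR adjusted p under 0.01). At an unadjusted p under 0.05 there were 30 in either direction, beside 47.1% of all tested genes, and DESeq2 called 10 higher and 3 lower, beside 11.0% and 12.8% of all genes with an adjusted p. The count of higher relatives became 15 without RVO replicate 2 and 0 or 1 when any other sample was left out. Shares of all genes in the fits with a sample left out are not given here. Between RVO and untreated eyes, 21 of 61 were higher and 13 lower, beside 27.4% and 24.6% of all genes. Between control and untreated eyes, 16 of 55 were higher and 11 lower, beside 27.2% and 25.2% of all genes. Of the relatives' calls chosen by the naming rule, 14 of 23 in RVO against untreated eyes and 13 of 22 in control against untreated eyes held with each sample left out in turn, and 0 of 3 between RVO and control eyes. The shares among relatives thus lay near those of all genes in the comparisons with untreated eyes.

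Csn3 was not accompanied by other caseins. Csn1s1 had 2 counts over all samples, and Csn2, Csn1s2a, Csn1s2b and the hormone gene Prl had 0. Lalba, the milk protein alpha-lactalbumin, was low, with 1.32, 1.46 and 1.82 CPM in RVO, 0.821, 0.558 and 0.591 CPM in control and 0.179, 0 and 0.280 CPM in untreated samples. Its RVO level exceeded the untreated level 9.39-fold (edgeR adjusted p = 0.00101), or 17.0-fold without Untreated replicate 3. Against control eyes its 2.31-fold difference did not pass (edgeR adjusted p = 0.0146). Of the prolactin and STAT5 pathway, Cish, a feedback inhibitor of cytokine receptors, rose 5.39-fold in RVO over untreated eyes (edgeR adjusted p = 1.41e-05) and 3.07-fold in control over untreated eyes (edgeR adjusted p = 5.37e-07). Stat5a rose 1.75-fold in RVO eyes, whereas the prolactin receptor Prlr fell to 0.325 of the untreated level (edgeR adjusted p = 0.00968 and 0.00564). In all, 3 of 7 tested milk genes passed as higher and 2 as lower in RVO against untreated eyes, beside 27.4% and 24.6% of all genes. In control against untreated eyes 4 of 6 were higher (Cish, Stat5a, Stat5b and Socs2), beside 27.2% of all genes. In RVO eyes Stat5b was lower, with a mean of 29.8 CPM against means of 59.0 (control) and 49.5 CPM (untreated), and fell to 0.596 of the untreated level (edgeR adjusted p = 0.00933). Between RVO and control eyes Stat5b passed by DESeq2 (ratio 0.498, DESeq2 adjusted p = 2.36e-05) and not by edgeR (edgeR adjusted p = 0.0132). The mean of Socs2 was 5.65 CPM in RVO eyes, against 10.9 (control) and 7.40 CPM (untreated), and its edgeR adjusted p in RVO eyes was 0.0438 against control and 0.257 against untreated. No gene of this list passed between RVO and control eyes by edgeR, with 5 of 7 at an unadjusted p under 0.05, beside 47.1% of all tested genes. Lalba and Cish passed with any sample left out, whereas Prlr, Stat5a, Stat5b and Socs2 each lost the call in 4 or 5 of 6 such fits.

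Of 14 tested steroid enzymes and receptors, 0 passed between RVO and control eyes by edgeR. At an unadjusted p under 0.05 there were 5, beside 47.1% of all tested genes. In RVO against untreated eyes 3 of 13 were higher and 3 lower, beside 27.4% and 24.6% of all genes. Srd5a3, a reductase of the steroid 5-alpha family that acts in protein glycosylation, rose 1.90-fold (edgeR adjusted p = 0.000341). The estrogen receptor gene Esr1 and Star, which carries cholesterol into mitochondria, fell to 0.252 and 0.656 of the untreated level (edgeR adjusted p = 0.00865 and 0.00565). Esr1 was at 0.387, 1.98 and 0.577 CPM in RVO and 3.40, 4.13 and 3.79 CPM in untreated samples, and again RVO replicate 2 was nearest to the other groups. Without it Esr1 fell to 0.126 of the untreated level. In control against untreated eyes, 2 of 13 were higher and 2 lower, beside 27.2% and 25.2% of all genes. Hsd17b4 rose 1.24-fold and Srd5a3 1.30-fold, and Hsd17b7 and Star were lower (edgeR adjusted p = 0.00208, 0.00833, 0.00435 and 0.00229). With single samples left out, Srd5a3 held in RVO against untreated eyes throughout, while Esr1 and Star each failed in 5 of 6 fits there. In control against untreated eyes, Srd5a3 failed in 6 of 6 fits and Hsd17b4, Hsd17b7 and Star failed without Untreated replicate 2, Hsd17b4 also without Untreated replicate 3 and Hsd17b7 also without Control replicate 3.

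Other TOG domain genes were lower, not higher, in both laser groups than in untreated eyes. Fam179b, its closest relative, fell to 0.665 of the untreated level in RVO eyes and to 0.643 in control eyes (edgeR adjusted p = 0.000236 and 1.51e-06). The microtubule genes Ckap5 and Clasp1 fell to 0.639 and 0.667 in RVO eyes (edgeR adjusted p = 0.000258 and 9.99e-05) and to 0.712 and 0.737 in control eyes (edgeR adjusted p = 9.13e-06 and 9.19e-06). These were 3 of the 4 genes listed, and Clasp2 did not pass. Of all genes, 24.6% were lower in RVO and 25.2% in control against untreated eyes. The 6 calls held with any sample left out. Between RVO and control eyes 0 of 4 passed by edgeR, with 1 at an unadjusted p under 0.05, beside 47.1% of all tested genes.

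Of 11 tested genes of the Fam83 family and partners of Fam83g, 1 was higher in RVO than in control eyes, beside 2.70% of all genes. This was Smad7, an inhibitor of TGF-beta and BMP signaling, and 0 were lower. It was at 28.3, 21.7 and 24.6 CPM in RVO and 15.3, 14.3 and 13.9 CPM in control samples, a rise of 1.71-fold (edgeR adjusted p = 0.00944). The call held without RVO replicate 2 (edgeR adjusted p = 8.55e-05) and was lost when any other sample was left out. Fam83h, a family member that organizes keratin filaments, differed 1.83-fold and was just outside the threshold (edgeR adjusted p = 0.01003). Against untreated eyes, 5 of 11 rose and 1 fell in RVO eyes, beside 27.4% and 24.6% of all genes. Id1 and Id3, the classical targets of BMP signaling, rose 3.86-fold and 3.37-fold in RVO eyes (edgeR adjusted p = 3.79e-05 and 0.000683) and 2.48-fold and 3.27-fold in control eyes (edgeR adjusted p = 2.31e-05 and 7.24e-07). Fam83h and Fam83f rose 2.85-fold and 2.52-fold in RVO over untreated eyes (edgeR adjusted p = 0.000228 and 0.00418). Of 10 tested in control against untreated eyes, 5 rose and 2 fell, beside 27.2% and 25.2% of all genes. Fam83f rose 1.79-fold (edgeR adjusted p = 0.00572) and the adaptor gene Cd2ap fell to 0.538 (edgeR adjusted p = 5.63e-06). Fam83f failed in 4 of 6 fits with a sample left out in RVO against untreated eyes and in 5 of 6 in control against untreated eyes, and Id1, Id3, Cd2ap and Fam83h held in all.

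The keratin list held 54 genes besides Krt24, 14 of them without a count in any sample. Krt8 and Krt18, the filament pair of simple epithelia, were 2 of 19 tested keratins that passed between RVO and control eyes. Of all tested genes, 2.70% were higher. Krt8 was at 9.38, 11.3 and 11.4 CPM in RVO and 3.65, 4.82 and 3.38 CPM in control samples (2.70-fold, edgeR adjusted p = 0.00746). Krt18 was at 180, 153 and 185 CPM in RVO, 82.7, 83.5 and 81.6 CPM in control and 57.9, 53.8 and 56.8 CPM in untreated samples, and its RVO level exceeded the control level 2.09-fold (edgeR adjusted p = 0.00455). Krt8 passed without RVO replicate 2 (edgeR adjusted p = 0.000213) and not without any other sample, and Krt18 passed without RVO replicates 1 or 2 (edgeR adjusted p = 3.05e-06 without replicate 2) and not without any other. In neither gene was RVO replicate 2 far from the other RVO samples, unlike in Krt24. The median log2 fold change of the 19 tested keratins was 0.68, against 0.02 over all genes. A low gene can pass the filter through RVO samples alone, which favors a positive median.

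Against untreated eyes, 7 of 18 keratins rose in RVO eyes and 1 fell, beside 27.4% and 24.6% of all genes. The median log2 fold change of the 18 was 0.99 against 0.01 over all genes. The filter favors a positive median here too, since a keratin near 0 in untreated eyes can pass through RVO samples alone. In control against untreated eyes the median of 14 tested keratins was -0.007, against 0.01 over all genes. Krt14, of basal epithelial cells, rose 11.9-fold and Krt19 8.11-fold (edgeR adjusted p = 0.00299 and 0.00306). Krt17, with 52 counts in RVO and 3 in untreated samples, passed with a ratio of 8.69 (edgeR adjusted p = 0.00282, exact 95% counting interval 2.81 to 43.5). The fold change of Krt19 was 5.37 without RVO replicate 1, and the fitted fold change of Krt17, 8.10, was 15.0 without Untreated replicate 2 and 5.25 without Untreated replicate 3. Krt16, a keratin of wounded skin, had 0 counts in all untreated samples and its RVO level was at least 10.2-fold higher (edgeR adjusted p = 0.000911). In control against untreated eyes 2 of 14 rose, Krt1 2.07-fold and Krt18 1.45-fold (edgeR adjusted p = 0.000154 and 3.53e-06), and Krt222 fell to 0.576 (edgeR adjusted p = 4.03e-05). Of all genes, 27.2% rose and 25.2% fell in this comparison. Krt14 and Krt19 lost the call without any of the 3 untreated samples and Krt17 without Untreated replicates 1 or 3, and the other keratins named here against untreated eyes held.

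The 10 markers of surface epithelium (cornea, conjunctiva and lid), of which Krt5, Krt12, Krt13 and Krt14 are also on the keratin list, summed to 13.4, 31.2 and 24.0 CPM in RVO samples, 17.7 to 19.7 CPM in control and 19.3 to 21.1 CPM in untreated samples, and none was at 0 throughout a group. Krt24 and Krtap4-16 were lowest in RVO replicate 2, where this sum was highest, but single markers differed in their order. Pkp1 was lower in RVO (2.16, 4.17 and 2.48 CPM) than in control samples (7.66, 7.56 and 8.53 CPM). Epcam was at 0.548, 0.429 and 0.577 CPM in RVO and 0.0912, 0.102 and 0.253 CPM in control samples, and Dsg1a at 0.742, 0.601 and 0.798 CPM in RVO and 0.228, 0.152 and 0.127 CPM in control samples. Both lay higher in RVO than in control samples without overlap and were lowest among RVO samples in replicate 2. Their control samples held only 2, 2 and 6 counts (Epcam) and 5, 3 and 3 counts (Dsg1a). Krt13 was also higher without overlap but lowest in RVO replicate 1. Krt5, Krt12, Krt14, Cdh1 and Pkp1 were instead highest among RVO samples in replicate 2. RVO and control samples overlapped for Krt5, Krt12, Krt14, Trp63, Cdh1 and Sfn. Of all tested genes, 27.3% were higher in RVO than in control samples without overlap. Of the 8 markers that passed the filter on low counts, 0 were higher and 0 lower between RVO and control eyes (edgeR adjusted p under 0.01). The part of surface epithelium in the members' values was not tested. The single markers were named after their values were seen.

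Of 56 other keratin-associated genes, 35 had no count in any sample and 1 was tested between RVO and control eyes, so the list allowed no comparison. Krtap4-8, Krtap4-9 and Krtap17-1, named after their values were seen, resembled Krtap4-16 in having 0 counts in all untreated samples. Their counts in RVO replicates 1, 2 and 3 were 22, 3 and 34 for Krtap4-8, 15, 3 and 16 for Krtap4-9 and 19, 0 and 24 for Krtap17-1. Again RVO replicate 2 was the lowest. In control samples they had 4, 0 and 2, then 10, 2 and 1, then 5, 0 and 1 counts. Reads of this gene family can match several members, and how the counting treated them is not given in the sources used here, although 0% of the 50-base stretches of Krtap4-16 matched another annotated transcript exactly.

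Cytochrome b5 reductases and partners moved in both directions against untreated eyes, with 3 of 8 higher and 3 lower in both comparisons. Of all genes, 27.4% were higher and 24.6% lower in RVO eyes, and 27.2% and 25.2% in control eyes. Cyb5r3, the ubiquitous reductase, rose 2.03-fold in RVO and 1.75-fold in control eyes (edgeR adjusted p = 5.56e-05 and 4.40e-06), and Cyb5r1 rose 1.79-fold in RVO eyes (edgeR adjusted p = 0.000510). Marc1, which receives electrons from cytochrome b5, fell to 0.119 in RVO and 0.408 in control eyes (edgeR adjusted p = 0.000632 and 0.00215), and to 0.0763 in RVO eyes without RVO replicate 2, whereas its paralog Marc2 rose 1.65-fold and 1.31-fold (edgeR adjusted p = 0.000365 and 0.00184). Cyb5r4 fell to 0.775 in control eyes (edgeR adjusted p = 0.000816). These calls held with any sample left out, apart from Marc1 in control eyes without Untreated replicate 2. None of the 8 passed between RVO and control eyes by edgeR, with 3 at an unadjusted p under 0.05, beside 47.1% of all tested genes.

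**Figure D3:**
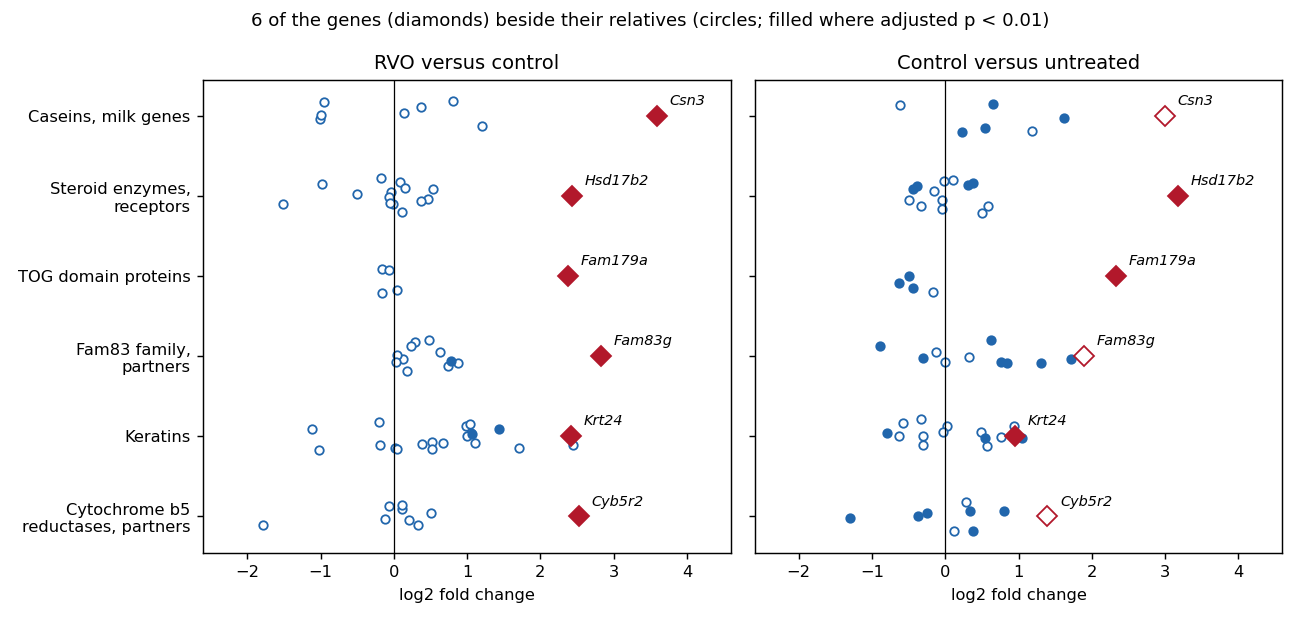
Log2 fold change of 6 of the genes (red diamonds, open where the gene did not pass the filter on low counts and the value is from the fit of every gene) and of the tested relatives in their family lists (blue circles, filled at an edgeR adjusted p under 0.01), for RVO versus control and control versus untreated. On the left the diamonds, which were chosen for this contrast, lie between 2.38 and 3.59, and Krt19 at 2.45 is the circle beside Krt24.

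Genes next to or overlapping the 7 genes on the chromosome were examined as a check of position and of shared reads. Of 18 such neighbors, 8 were tested, and 0 passed between RVO and control eyes by edgeR. At an adjusted p under 0.05 there were 4 higher and 1 lower, beside 17.5% and 17.1% of all tested genes. DESeq2 called 3 higher and 1 lower, beside 11.0% and 12.8% of all genes with an adjusted p. Against untreated eyes Clip4, beside Fam179a, was 1.55-fold higher in RVO eyes (edgeR adjusted p = 0.000162), and Krt222, beside Krt24, was 3.51-fold lower (edgeR adjusted p = 0.000511). These were 1 higher and 1 lower of 8 tested neighbors, beside 27.4% and 24.6% of all genes. In control against untreated eyes Grap, beside Fam83g, was higher (edgeR adjusted p = 0.00966), and Mphosph6, Wdr43 and Krt222 were lower (edgeR adjusted p = 0.000583, 0.00105 and 4.03e-05). That made 1 higher and 3 lower of 8 tested neighbors, beside 27.2% and 25.2% of all genes.

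Of the genes that overlap a member on the opposite strand, 1700066N21Rik at Csn3 had 0 counts and Gm15641 at Fam179a had 2. Slc5a10, which shares exon positions with Fam83g, had at most 4 counts in a sample. Ppfibp2, which overlaps the end of Cyb5r2, differed 1.47-fold between RVO and control eyes and did not pass (log2 fold change 0.55, edgeR adjusted p = 0.0411). Whether the counting used the strand is not given in the sources used here, so reads where these genes overlap could have been assigned to either. Exact 50-base matches to other genes covered 3.92% of Fam83g, 2.89% of Cyb5r2, 0.984% of Csn3 and 0.782% of Fam179a.

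Over the 9 samples, the genes whose log2 CPM was most like that of Csn3 were Eef1a1, Amacr and Fau (Pearson's r 0.994, 0.993 and 0.993). For Hsd17b2 they were Tubb4b, Chil1 and Ptprn (r 0.999, 0.999 and 0.998), and for Fam179a Arhgef5, Mogat2 and Cmtm3 (r 0.992, 0.991 and 0.989). Fam83g was most like Pecr, Myo1h and Inhba (r 0.988, 0.984 and 0.983). Nans, Lap3 and Eaf1 came first for Krt24 (r 0.998, 0.996 and 0.996), and Cd24a, Fndc3b and Slc7a11 for Cyb5r2 (r 0.992, 0.992 and 0.990). These points share 3 groups, and between 835 and 3129 of 17111 genes had an r above 0.9 with a given member, so a high r is common here and is given as a description. Among the 6 members themselves r was between 0.894 and 0.966. Krtap4-16 did not pass the filter on low counts and was not compared.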

How the data were processed

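RNA from 9 samples of pooled mouse retinas was sequenced (poly-A selected, stranded kit, 50-base single reads). The authors mapped the reads with STAR 2.5.2b to the mouse genome GRCm38, with gene models of Gencode vM11, counted them per gene with featureCounts (Subread 1.5.1) and deposited raw counts, which carry no normalization. The handling of reads that match several genes is not given in the sources used here. Of 48679 names, 92 were spike-in controls with 0 counts and were left out. Columns not used numbered 0.

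Each pair of groups was fitted on its own with edgeR 4.0.16 in R 4.3.3 (TMM scaling, filterByExpr and the quasi-likelihood test). P-values were adjusted by Benjamini-Hochberg, with a threshold of 0.01. The procedure was also run on simulated counts with the same dispersion for every gene, no deviating sample and no changes in low genes. Those settings differ from these data, so that run cannot show how reliable the calls are here. TMM factors lay between 1.04 and 1.07 for RVO, between 1.01 and 1.04 for control and between 0.903 and 0.935 for untreated samples. DESeq2 1.42.0 was an alternative. Other alternatives concerned scaling, filter, threshold, thinning of depth, a joint fit of the 9 samples, a block for the replicate number and each sample left out. Fitted fold changes include the small default prior count of edgeR, which pulls those of genes with few counts toward no change. No other shrinkage was applied. Each SE was derived from the test, as the size of the log2 fold change divided by the square root of the quasi-likelihood F statistic. A gene can pass the filter through the one group in which it is high, so members tested are not all members. Coordinates came from GENCODE vM21 (GRCm38), in which 46855 of 48587 gene names were found, and promoters from RefSeq.

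The 7 genes and all lists were chosen with earlier results of these data known. Named besides the 7 are their neighbors, the called relatives (at most 4 per list and comparison, by size of log2 fold change) and the 3 genes most correlated with each. The labels do not say whether equal replicate numbers mark pools of the same mice. Replicates were separate pools and differed by more than counting noise (chi-square per degree of freedom 3.15 to 54.1). The result of 1 relative is not reported here.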

Additional observations from a re-analysis of the deposited data

How the results depend on the processing

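The direction of the fold change did not reverse for any value under the alternatives run. Of the 7 genes, 2 were higher in control than in untreated eyes by edgeR under each alternative except the test without a filter (5) and the threshold of 0.05 (3), and 2 with any sample left out. Without a filter, leaving out each sample gave 2 to 5, an alternative chosen after seeing the data. For relatives, the count higher in control than in untreated eyes was 16 and became 6 when all 9 samples were fitted together (10 to 13 with a sample left out), and the count lower was 11 and became 6 with library size only and 7 with all 9 samples (8 to 12). In RVO against untreated eyes, 21 higher became 15 to 25 and 13 lower became 6 to 14 with a sample left out, and 13 became 7 with library size only. That scaling moved the median over all genes (log2 fold change) to 0.22 for RVO against untreated, 0.19 for control against untreated and 0.07 for RVO against control. For these counts of relatives, the shares of all genes under the same settings are not given here.

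In RVO against control eyes, 3 relatives were higher. This became 10 with DESeq2, 9 without a filter, 10 with all 9 samples, 15 at 0.05 and 0 to 15 with a sample left out. The 0 lower became 3, 2, 3 and 6 under the same settings and 0 to 8 with a sample left out. For neighbors, 0 higher became 3, 3, 3 and 4, and 0 to 3 with a sample left out, and 0 lower became 1 under each of these and 0 to 1 with a sample left out. Over all genes the share called higher was 2.70% in the main fit, 11.0% with DESeq2 and 17.5% at 0.05. The share called lower was 0.634%, 12.8% and 17.1%. For the fit without a filter, the joint fit and the fits with a sample left out, such shares are not given here. The moves are therefore not read as a trait of the relatives or neighbors, and their cause was not tested. The replicate number as a block gave 0 higher relatives in RVO against control eyes in place of 3. Same-numbered RVO and control samples correlated with r of -0.131, -0.148 and 0.0711, as deviations from group means. These values showed no pairing by number, but with 3 pools per group they cannot exclude one. The block changed no other of these counts by more than 1.5 times.

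Depth limits Csn3, Fam83g and Krtap4-16 most, since they had 2, 6 and 0 counts over the untreated group, and 3 counts correspond to 0.0779 CPM there.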
